A study of Homo sapiens with 9 samples.

Results

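Definitive endoderm carrying a deletion of CHD7 on both alleles (CHD7-/-, homozygous) was compared with endoderm of the control genotype (CHD7+/+, wild type) across all expressed genes. These are 6 of the 9 libraries of the series, 3 per genotype, chosen by the genotype in their labels. The other 3 libraries, of CHD7+/- (heterozygous) endoderm, entered the fit and are described only where their values stand beside those of the homozygous cells. All cells descended from H9, an established human embryonic stem cell line kept in mTeSR Plus on Matrigel. The mutants were made with CRISPR/Cas9, and all genotypes were differentiated to definitive endoderm before total RNA was sequenced. The deleted interval, the number of clones, the agents and days of the differentiation and any separate cultures are not in the labels. The p-values therefore cover the spread among these libraries alone, and that spread may be technical.

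CHD7 is an ATP-dependent chromatin remodeller that slides nucleosomes at enhancers and promoters, and mutations in it cause most cases of CHARGE syndrome. Definitive endoderm is the germ layer that gives rise to the gut, liver, pancreas and lungs. It forms in response to Nodal and FGF signals, and its patterning depends on secreted antagonists, on adhesion changes and on extracellular matrix.

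Library totals lay between 11854173 counts in homozygous replicate 1 and 37519729 counts in wild-type replicate 1. CHD7 itself stood at 195, 195 and 189.2 CPM (reads relative to library size after TMM adjustment) in wild-type replicates 1, 2 and 3 and at 56.1, 42.97 and 55.5 CPM in the homozygous replicates (log2 change -1.91, SE 0.11, adjusted p = 5.25e-07, edgeR quasi-likelihood test, Benjamini-Hochberg adjustment). All 3 homozygous libraries were below all wild-type libraries, with reads still counted over the gene. Summed definitive endoderm markers, 15 genes that include SOX17, FOXA2 and CER1, ranged from 11643 to 12506 CPM in wild-type and from 8170.0 to 9337 CPM in homozygous libraries. Abundant markers weigh most in such a sum. At an adjusted p below 0.05 (edgeR), 4 of the 15 were lower, 1 was higher and 10 did not pass, with a median log2 fold change of -0.13. Summed trophoblast and amnion markers, with rows for 10 of 12 genes, ranged from 12.9 to 16.3 CPM and from 24.7 to 34.0 CPM, and summed mesoderm markers, with rows for 11 of 16 genes, from 59.4 to 78.5 CPM and from 33.9 to 51.7 CPM. Summed pluripotency markers, 13 genes, ranged from 4474 to 4626 CPM and from 3884 to 4210.2 CPM. Summed fibroblast markers overlapped, at 1821 to 2687 CPM and 1648 to 2473 CPM. Of the tested members, 2 of 4 trophoblast and amnion, 1 of 6 mesoderm, 1 of 11 pluripotency and 3 of 8 fibroblast markers passed in either direction. The part of these other cell types in the gene changes was not tested, and in bulk RNA fewer cells of a type and less RNA per cell cannot be told apart.

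Homozygous replicate 3 lay nearer to the wild-type libraries than the other 2 homozygous libraries did. On the first principal component of the 6 libraries, which held 51.2% of the variance, it lay at 14.6 against 38.8 and 44.6 for the others. Of the 3 homozygous libraries it was the one nearest to the wild-type mean for 307 of the 589 genes called higher and for 375 of the 704 genes called lower. Without it 2118 genes were called, 987 higher and 1131 lower. The count also moved with wild-type libraries: 651 genes were called without wild-type replicate 2 and 700 without wild-type replicate 3. These 2 libraries differed least of all pairs of 1 genotype (chi-square per degree of freedom 2.55). By that measure, which also depends on depth, homozygous replicate 3 was not the one furthest from the others. The values were 9.91 for homozygous replicates 1 and 3, 13.9 for 1 and 2 and 30.6 for 2 and 3.

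At an adjusted p below 0.05, 1293 of 16837 genes tested differed between homozygous and wild-type endoderm, which is 7.68% of them. 589 genes (3.5%) were higher and 704 (4.18%) were lower in homozygous cells, and the median log2 fold change of all genes was 0.01. Most differences were modest: 236 higher and 266 lower genes passed a fitted 2-fold change, and 77 and 72 passed a 4-fold change. Against a null of a 1.5-fold change, 281 genes (1.67%) were called, 126 higher and 155 lower. The homozygous libraries lay wholly above or below the wild-type libraries for 28.9% of all genes, called or not. The same held for 1278 of the 1293 called genes. It was also a condition for the genes named by size below, so it is no further evidence where stated.

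**Figure D1:**
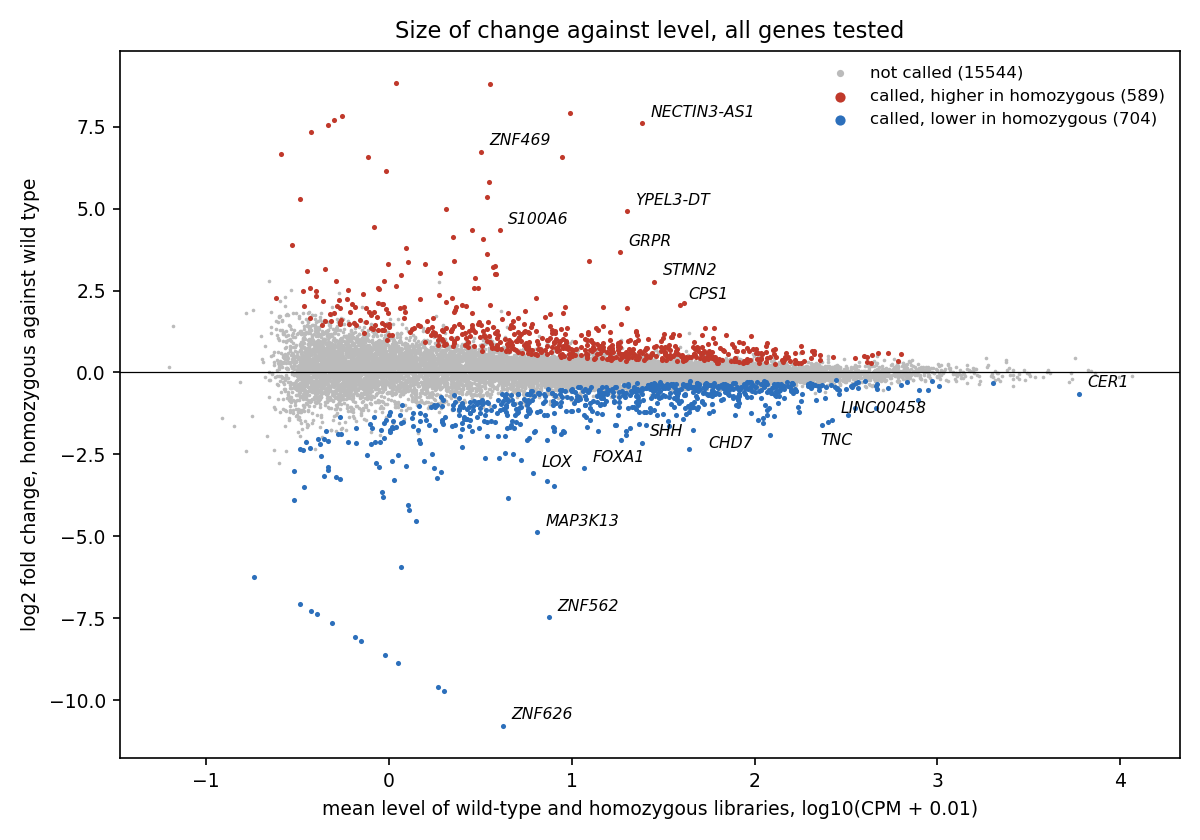
Each point is 1 of the 16837 genes tested, placed by its mean level (log10 of CPM plus 0.01) and its log2 fold change, homozygous minus wild type. The 589 genes called higher (red) and 704 called lower (blue) spread over all levels, and the gene names mark a few members at the edge of the cloud.

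Of 93 gene lists covering pathways and families, 57 had at least 4 called members. Lists above the 4.18% of all genes that fell included the FGF list (12 of 32), those of neuronal and immunoglobulin adhesion molecules (12 of 58), and semaphorins, plexins and neuropilins (6 of 30). Among genes that rose, the S100 and annexin list stood at 9 of 20, beside 3.5% of all genes. Genes are named by a rule of size, and of the 596 called list members 292 passed whichever library was left out. Outside the FGF, S100, sterol and Notch lists, the list members named below are taken from these 292, and those that the rule does not name were chosen after their values were seen.

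**Figure D2:**
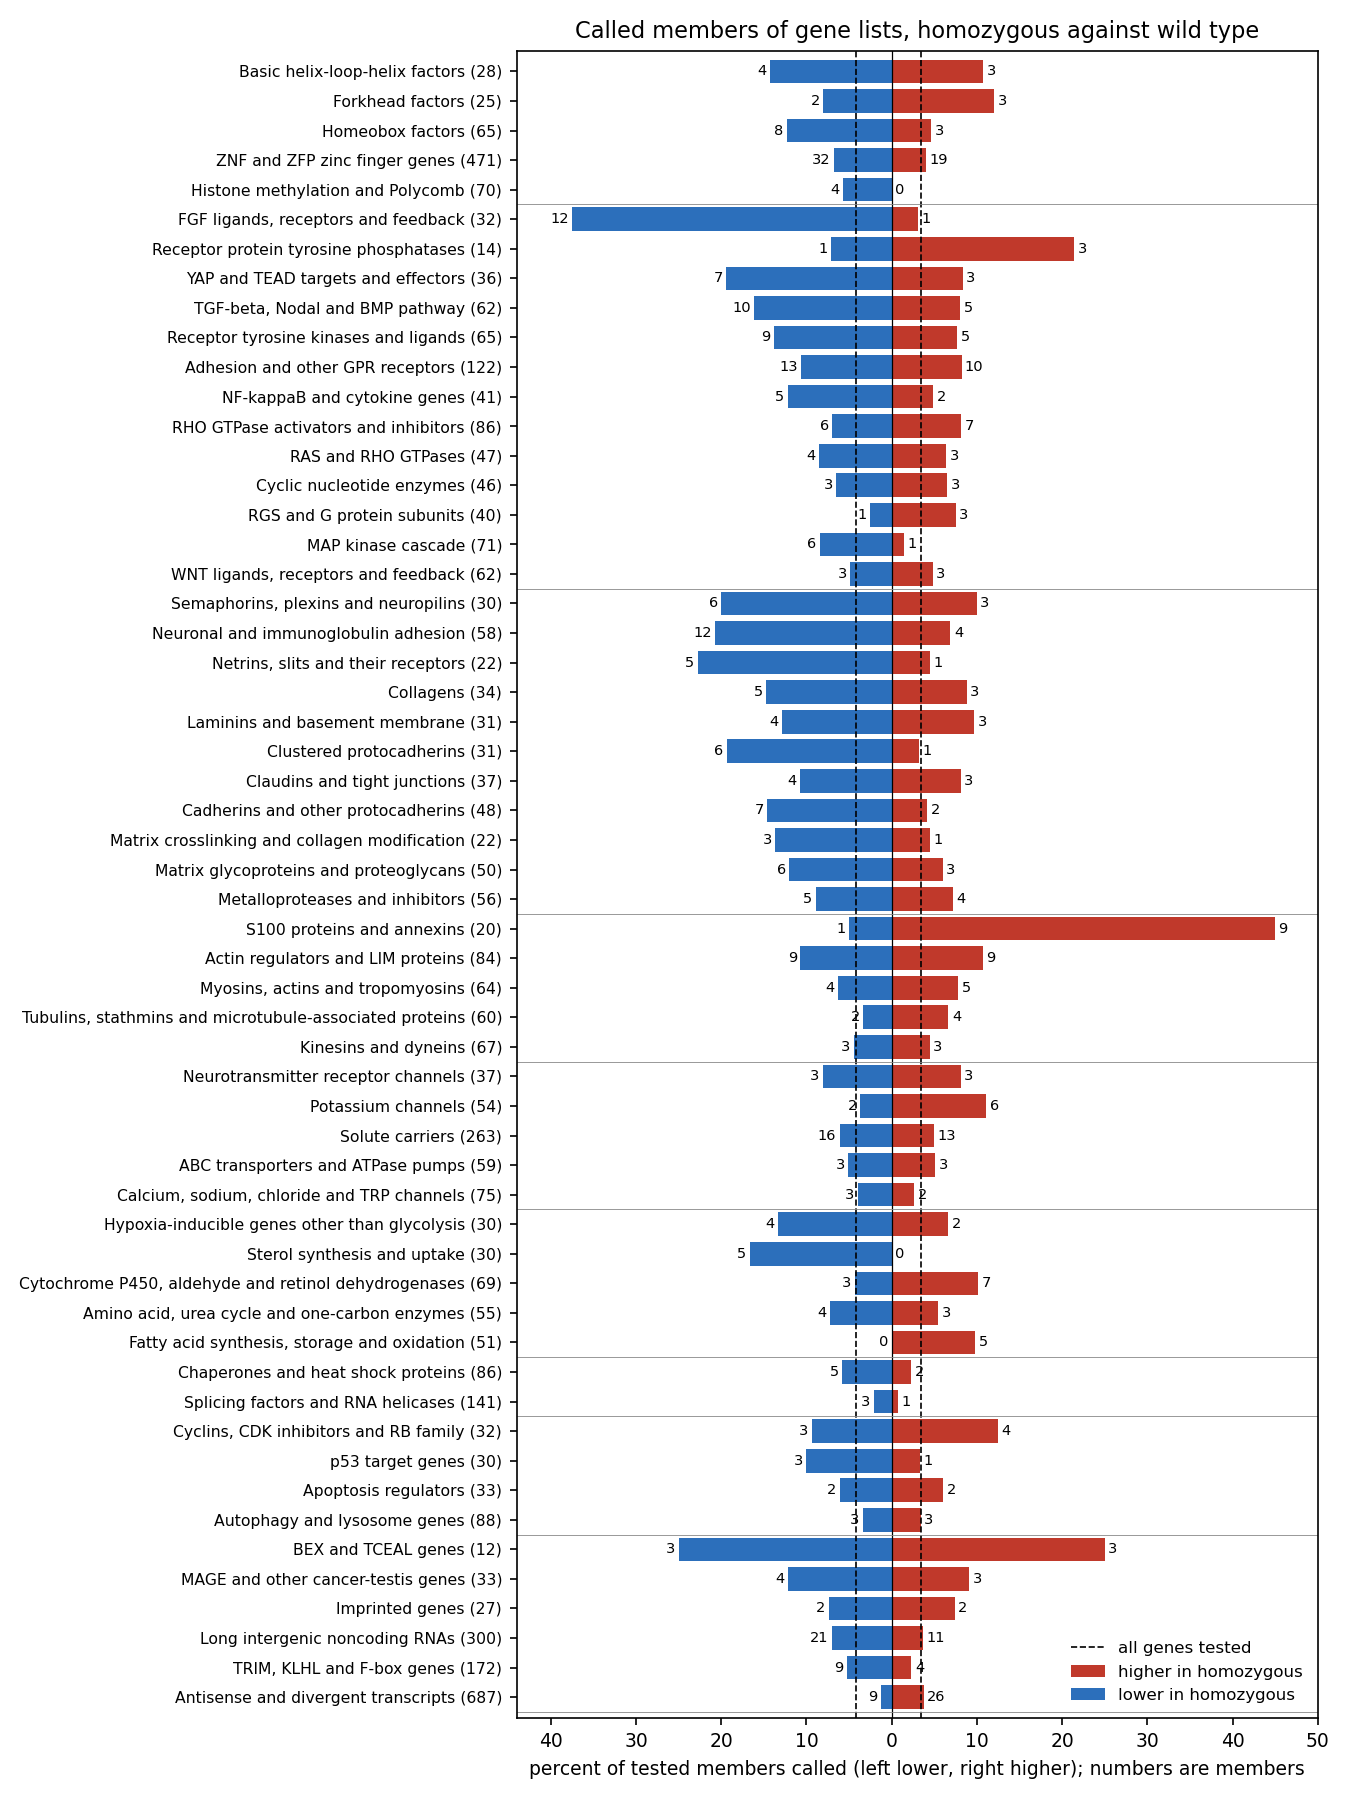
Bars give the percent of tested members called lower (left) and higher (right) in homozygous endoderm for each list with at least 4 called members. Dashed lines mark all genes tested, at 4.18% lower and 3.5% higher, and many lists lie near those lines.

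A small set of genes was close to on or off. Among the named genes with a single promoter window in RefSeq, the 3 largest rises were NECTIN3-AS1, NHIP and YPEL3-DT and the 3 largest falls were ZNF626, ZNF562 and MAP3K13. The windows of 250 bases upstream of their annotated starts are shown because these genes change most, with each CpG dinucleotide in capitals and all other bases in lower case, on the strand of the gene.
NECTIN3-AS1: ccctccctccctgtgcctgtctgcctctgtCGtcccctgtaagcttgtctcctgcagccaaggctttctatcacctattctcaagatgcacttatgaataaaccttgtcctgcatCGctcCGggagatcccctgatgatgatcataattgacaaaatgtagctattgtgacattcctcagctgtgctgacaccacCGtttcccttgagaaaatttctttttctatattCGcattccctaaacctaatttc
NHIP: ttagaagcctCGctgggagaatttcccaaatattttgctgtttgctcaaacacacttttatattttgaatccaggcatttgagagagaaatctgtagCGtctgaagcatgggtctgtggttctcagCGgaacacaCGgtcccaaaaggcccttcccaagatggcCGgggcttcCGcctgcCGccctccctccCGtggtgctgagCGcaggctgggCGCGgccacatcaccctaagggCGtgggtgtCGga
YPEL3-DT: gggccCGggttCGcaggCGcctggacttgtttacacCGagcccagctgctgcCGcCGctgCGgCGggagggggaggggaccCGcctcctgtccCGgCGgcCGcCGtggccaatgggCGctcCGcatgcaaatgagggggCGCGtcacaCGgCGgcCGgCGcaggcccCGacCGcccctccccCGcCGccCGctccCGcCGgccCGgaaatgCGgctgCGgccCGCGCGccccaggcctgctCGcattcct
ZNF626: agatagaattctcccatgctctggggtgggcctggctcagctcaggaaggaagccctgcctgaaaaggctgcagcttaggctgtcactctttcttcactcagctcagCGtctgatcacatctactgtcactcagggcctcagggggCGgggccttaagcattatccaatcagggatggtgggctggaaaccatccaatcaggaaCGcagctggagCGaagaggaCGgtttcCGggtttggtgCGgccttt
ZNF562: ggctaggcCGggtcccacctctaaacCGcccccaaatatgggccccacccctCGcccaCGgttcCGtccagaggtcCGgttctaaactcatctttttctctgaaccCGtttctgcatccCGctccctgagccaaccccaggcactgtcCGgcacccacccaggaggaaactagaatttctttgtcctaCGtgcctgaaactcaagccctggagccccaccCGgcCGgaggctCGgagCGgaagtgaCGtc
MAP3K13: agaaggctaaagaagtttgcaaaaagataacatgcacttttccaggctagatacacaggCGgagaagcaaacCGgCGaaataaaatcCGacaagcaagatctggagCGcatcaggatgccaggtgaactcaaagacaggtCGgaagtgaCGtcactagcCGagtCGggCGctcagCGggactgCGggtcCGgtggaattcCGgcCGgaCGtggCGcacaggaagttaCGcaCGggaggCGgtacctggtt
The windows come from RefSeq on GRCh38.p14 and lie at chr3:111069960-111070209 (minus strand), chr22:49052386-49052635 (minus strand), chr16:30096180-30096429 (plus strand), chr19:20661572-20661821 (minus strand), chr19:9675101-9675350 (minus strand) and chr3:185282711-185282960 (plus strand), in the same order. They hold 5, 13, 35, 7, 15 and 20 CpG. Only 69.9% of the genes tested matched a window, so a comparison of CpG between called and other genes would be void, and none is given.

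NECTIN3-AS1, a transcript antisense to the adhesion gene NECTIN3, was counted at 0.134, 0.262 and 0.374 CPM across the wild-type libraries and 45.7, 47.5 and 51.3 CPM across the homozygous ones (log2 change 7.61, SE 0.20, adjusted p = 3.59e-10). YPEL3-DT, a divergent transcript beside YPEL3, rose from 1.28 ± 0.286 to 38.8 ± 4.90 CPM (SD, n = 3, as for all such values). No source used here gives the strand setting of the counting, so reads of these transcripts cannot be told apart from reads of their partners. NHIP, a primate-specific gene on chromosome 22, stood at 0.188, 0.0328 and 0.125 CPM across the wild-type libraries and 6.77, 5.93 and 8.18 CPM across the homozygous ones. Both ZNF genes encode proteins of the large KRAB zinc finger family of repressors. ZNF626 had 8.13, 9.22 and 7.81 CPM in wild-type libraries and no count in any homozygous library, where a floor of 3 counts over the genotype makes it at least 174.3-fold lower. ZNF562 was read at 13.9, 15.5 and 15.5 CPM across the wild-type libraries and 0, 0.166 and 0 CPM across the homozygous ones, a sum of 5 counts. MAP3K13, which encodes a kinase upstream of JNK, fell from 12.5 ± 0.861 to 0.410 ± 0.210 CPM (log2 change -4.88, SE 0.24). The rule that named these genes required no overlap between the libraries of the genotypes.

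The FGF list moved mostly downward: 12 of its 32 tested genes fell and 1 rose, with a median log2 fold change of -0.28 beside 0.01 for all genes. FGF ligands bind receptor tyrosine kinases that signal through the MAP kinase cascade, and Sprouty, Spred and DUSP proteins restrain that signal. Among ligands, FGF17, the most abundant, stood at 2834 ± 100.4 CPM in the wild type and 2751 ± 188.978 CPM in the homozygous cells, and FGF8 at 42.9 ± 2.14 CPM in the wild type and 39.6 ± 4.73 CPM in the homozygous cells (adjusted p = 0.778 and 0.555, edgeR). FGF20 fell from 2.09 ± 0.314 to 0.609 ± 0.343 CPM (log2 change -1.64, SE 0.33). FGF10, at 0.523 and 0.105 CPM, passed narrowly (adjusted p = 0.0499). It was not called without homozygous replicate 1 or 2, heterozygous replicate 1 or 2 or wild-type replicate 2 or 3 (highest adjusted p = 0.243). FGF13, whose product stays inside the cell, fell from 80.1 ± 5.58 to 61.4 ± 6.88 CPM.

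The receptors split. FGFR2 measured 55.2, 56.2 and 56.5 CPM across the wild-type libraries and 41.3, 39.03 and 39.99 CPM across the homozygous ones (log2 change -0.48, SE 0.09, adjusted p = 0.00446). FGFR3 measured 41.9, 45.5 and 43.5 CPM and 27.4, 29.5 and 34.7 CPM (log2 change -0.51, SE 0.10, adjusted p = 0.00928). Both were lower in every homozygous library than in any wild-type library. FGFR1 was the 1 member called higher (164 ± 6.62 CPM in the wild type and 209 ± 11.1 CPM in the homozygous cells, adjusted p = 0.0382), and FGFR4 did not pass (49.8 ± 5.48 CPM in the wild type and 57.02 ± 4.65 CPM in the homozygous cells). FGFRL1, a receptor relative without a kinase domain, fell from 73.9 ± 4.54 to 53.1 ± 6.45 CPM.

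Of 11 tested Sprouty, Spred and DUSP genes of the list, 3 fell and 8 did not pass. DUSP6, a phosphatase that removes ERK activation, stood at 104, 117 and 122 CPM across the wild-type libraries and 65.02, 65.9 and 73.8 CPM across the homozygous ones (log2 change -0.75, SE 0.15, adjusted p = 0.00691). SPRY2, an inhibitor of receptor tyrosine kinase signalling, stood at 116, 119 and 112 CPM and 72.4, 76.04 and 86.4 CPM (log2 change -0.56, SE 0.10, adjusted p = 0.00299). IL17RD, known as SEF and an antagonist of FGF signalling, fell from 330.1 ± 4.67 to 237 ± 16.1 CPM, and SPRED2, an inhibitor of RAS signalling, from 177 ± 6.67 to 142 ± 10.97 CPM. Of those that did not pass, SPRY4 was at 267 and 284 CPM (adjusted p = 0.548), and DUSP4 at 459 and 345 CPM (adjusted p = 0.0542). FLRT2, a transmembrane protein that interacts with FGF receptors and Unc5 proteins, fell from 30.7 ± 2.11 to 14.4 ± 3.82 CPM (log2 change -1.10, SE 0.18, adjusted p = 0.00252). The falls numbered 6 leaving out wild-type replicate 2: FGF20, FGFR2, DUSP6, SPRY2, FLRT2 and FLRT3 passed whichever library was left out. FGFR3, FGFRL1 and IL17RD did not pass without wild-type replicate 2 (adjusted p = 0.0588, 0.0637 and 0.0597). SPRED2 did not pass without homozygous replicate 2 or any 1 wild-type library (highest adjusted p = 0.118), FGF13 without those or heterozygous replicate 2 (highest adjusted p = 0.108), and FGFR1 without homozygous replicate 1 or any 1 wild-type library (highest adjusted p = 0.167). Against a 1.5-fold change only FLRT3, a relative of FLRT2, stayed called on this list.

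**Figure D3:**
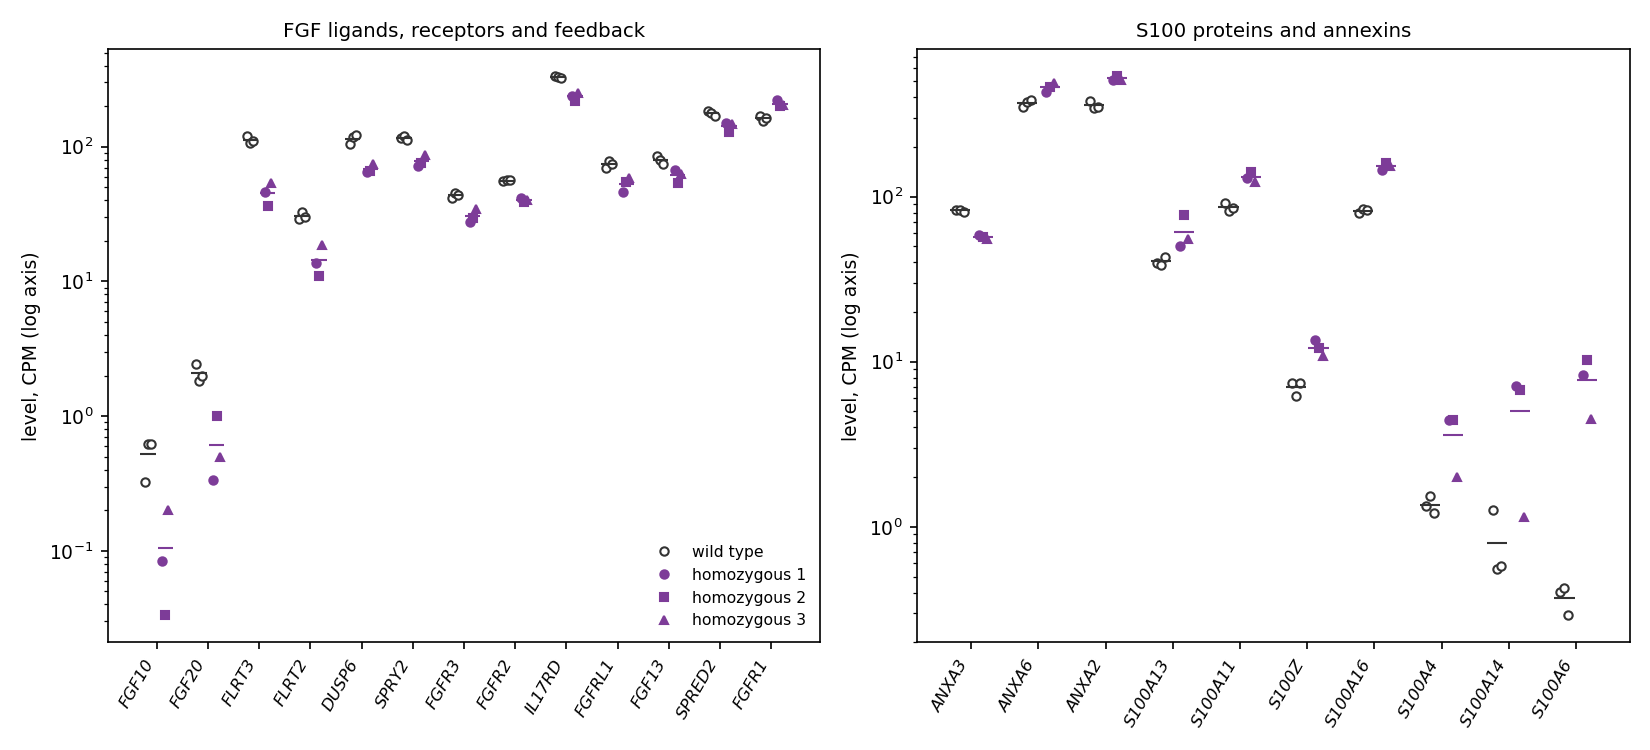
Points are the CPM of single libraries (log axis), wild type and homozygous, with bars at the means of 3, for the 13 called genes of the FGF list and the 10 called genes of the S100 and annexin list. In the FGF panel 12 genes are lower and FGFR1 is higher in the homozygous mean; in the other panel 9 means are higher and that of ANXA3 is lower.

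The MAP kinase cascade list held 6 falls and 1 rise among 71 tested genes (9.86% called, beside 7.68% of all genes). RPS6KA6, a ribosomal S6 kinase, had 56.6, 65.6 and 55.3 CPM across the wild-type libraries and 22.4, 16.5 and 28.1 CPM across the homozygous ones (log2 change -1.41, SE 0.20, adjusted p = 7.44e-04). MAPK10, the JNK3 kinase, fell from 32.5 ± 1.40 to 14.1 ± 1.27 CPM (log2 change -1.19, SE 0.11). The falls numbered 12 leaving out homozygous replicate 3, and the single rise became 0 leaving out any 1 wild-type library or homozygous replicate 2 and 3 leaving out homozygous replicate 3.

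Follistatin was among the falls. The TGF-beta, Nodal and BMP list of 62 tested genes held 10 falls and 5 rises, with a median log2 fold change of -0.09. FST, which encodes follistatin, a trap for activin, measured 148, 174 and 178 CPM across the wild-type libraries and 57.3, 64.3 and 81.8 CPM across the homozygous ones (log2 change -1.29, SE 0.15, adjusted p = 1.94e-04). Its libraries did not overlap between the genotypes. Of the receptors, BMPR1B fell from 7.03 ± 0.167 to 3.10 ± 0.658 CPM and TGFBR2 from 14.1 ± 1.09 to 8.16 ± 0.694 CPM. SMAD6, an inhibitor of BMP signals, rose from 80.7 ± 6.45 to 123.1 ± 19.02 CPM. FSTL1, a secreted follistatin-like glycoprotein, rose from 299 ± 8.76 to 409 ± 23.7 CPM. The falls numbered 5 leaving out homozygous replicate 2 and 6 leaving out any 1 wild-type library or homozygous replicate 1, and the rises 2 leaving out wild-type replicate 2 and 3 leaving out wild-type replicate 1 or 3 or homozygous replicate 1; FST and BMPR1B stayed called against a 1.5-fold change.

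Of 23 tested genes of Hedgehog and primary cilium signalling 1 was called (4.35%, beside 7.68% of all genes). This gene was SHH, the Hedgehog ligand made by gut endoderm. It had 36.05, 41.03 and 41.6 CPM across the wild-type libraries and 5.85, 7.42 and 13.3 CPM across the homozygous ones (log2 change -2.14, SE 0.22, adjusted p = 7.16e-05). All homozygous libraries were below the wild-type range. The falls of this list numbered 3 leaving out homozygous replicate 3. On the Wnt list 3 of 62 genes fell and 3 rose (9.68% called, beside 7.68% of all genes). The Wnt falls numbered 5 leaving out homozygous replicate 3. DKK4, a secreted Wnt antagonist, fell with a log2 fold change of -2.67 and stayed called against a 1.5-fold change (adjusted p = 0.00245, edgeR). LGR5, an R-spondin receptor, fell from 20.8 ± 0.741 to 8.45 ± 3.21 CPM but did not pass that test (adjusted p = 0.0662, edgeR). FZD7, a Wnt receptor, fell from 629 ± 49.4 to 451 ± 25.5 CPM, and the ligand WNT4 rose from 5.89 ± 0.409 to 11.4 ± 1.74 CPM. Of 28 tested Notch pathway genes 1 fell, LFNG, a Fringe glycosyltransferase that modifies Notch, beside 7.68% of all genes called. It did not pass without homozygous replicate 1 or wild-type replicate 1 or 3 (highest adjusted p = 0.0917).

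The list of receptor tyrosine kinases and their ligands held 9 falls and 5 rises among 65 tested genes, and the rises numbered 3 leaving out wild-type replicate 2. ANGPT1, angiopoietin 1, measured 6.95, 6.17 and 5.44 CPM across the wild-type libraries and 1.92, 1.32 and 1.70 CPM across the homozygous ones (log2 change -1.95, SE 0.20, adjusted p = 7.31e-05). TEK, the angiopoietin receptor TIE2, measured 5.36, 6.59 and 8.14 CPM and 2.67, 1.16 and 2.64 CPM (log2 change -1.69, SE 0.31, adjusted p = 0.00471). Both were outside the wild-type range in all homozygous libraries. KDR, the VEGF receptor 2 and also a mesoderm marker, fell from 48.6 ± 7.90 to 23.5 ± 7.09 CPM, and ANGPT2 fell from 106 ± 13.7 to 53.2 ± 12.5 CPM. ERBB4, a neuregulin receptor and the most abundant of these receptors that fell, went from 461 ± 43.5 to 187.4 ± 54.5 CPM (log2 change -1.30, SE 0.23). GDNF, a ligand of the RET complex, fell from 13.9 ± 0.929 to 3.99 ± 0.617 CPM. IGFBP4, an insulin-like growth factor binding protein, rose from 31.9 ± 2.76 to 71.1 ± 9.73 CPM.

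ANKRD1, a transcript widely used as a readout of YAP and TEAD, stood at 58.5, 75.1 and 80.6 CPM across the wild-type libraries and 17.4, 15.7 and 29.7 CPM across the homozygous ones (log2 change -1.77, SE 0.21, adjusted p = 2.24e-04). The YAP and TEAD list held 7 falls and 3 rises among 36 tested genes. AMOTL1, an angiomotin that binds YAP, fell from 152 ± 3.58 to 76.8 ± 18.7 CPM, AJUBA, a LIM protein that inhibits LATS kinases, fell from 45.3 ± 1.18 to 31.7 ± 4.24 CPM, and WWC3, a relative of the LATS activator KIBRA, rose from 35.2 ± 0.657 to 48.9 ± 4.92 CPM. The falls numbered 3 leaving out wild-type replicate 2 or 3 or homozygous replicate 2 and 4 leaving out wild-type replicate 1 or homozygous replicate 1, and the rises 1 leaving out any 1 wild-type library.

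Of 21 tested genes of retinoid metabolism and reception 3 were called (14.3%, beside 7.68% of all genes), all higher in homozygous cells. Leaving out homozygous replicate 3 gave 6 rises and 3 falls. STRA6, the cell surface receptor for retinol-binding protein, measured 2.52, 1.84 and 1.54 CPM across the wild-type libraries and 8.11, 6.65 and 6.28 CPM across the homozygous ones (log2 change 1.80, SE 0.21, adjusted p = 1.52e-04). CRABP2, an intracellular carrier of retinoic acid, rose from 15.3 ± 1.12 to 30.5 ± 10.1 CPM, and DHRS3, a retinaldehyde reductase, from 2.96 ± 0.549 to 6.73 ± 1.62 CPM. The 3 genes did not overlap between the genotypes.

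The chemokines CXCL12 and CCL2 moved in opposite directions. CXCL12, the ligand of CXCR4, had 26.2, 43.9 and 44.8 CPM across the wild-type libraries and 8.36, 8.97 and 19.9 CPM across the homozygous ones (log2 change -1.61, SE 0.28, adjusted p = 0.00375). CCL2, a monocyte attractant, had 36.9, 25.6 and 27.4 CPM and 90.02, 91.4 and 48.3 CPM (log2 change 1.35, SE 0.22, adjusted p = 0.00209). TNFRSF10B, a receptor of the death ligand TRAIL, fell from 61.3 ± 4.20 to 35.97 ± 3.49 CPM, and SOCS1, an inhibitor of cytokine signalling, rose from 5.38 ± 0.787 to 11.01 ± 1.09 CPM.

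G protein-coupled receptors changed in both directions, 10 higher and 13 lower of 122 tested (18.9% called, beside 7.68% of all genes). The rises numbered 6 leaving out wild-type replicate 2 or 3 or homozygous replicate 2. GPR151, an orphan receptor, stood at 2.71, 1.77 and 1.79 CPM across the wild-type libraries and 27.5, 22.8 and 17.6 CPM across the homozygous ones (log2 change 3.41, SE 0.23, adjusted p = 2.16e-06). ADGRL3, a latrophilin that binds FLRT and teneurin proteins, stood at 19.6, 28.1 and 30.8 CPM and 7.61, 6.42 and 11.97 CPM (log2 change -1.59, SE 0.22, adjusted p = 6.13e-04). GNG2, a G protein gamma subunit, rose from 8.12 ± 0.985 to 21.6 ± 2.69 CPM. PDE6B, a cyclic GMP phosphodiesterase best known from photoreceptors, rose from 4.49 ± 0.619 to 11.1 ± 1.77 CPM.

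Several guidance and synaptic adhesion molecules fell. Of 30 tested semaphorins, plexins and neuropilins, 6 fell and 3 rose, and the median log2 fold change was 0.15. The rises numbered 1 leaving out wild-type replicate 2 or 3 or homozygous replicate 1 or 2 and 5 leaving out homozygous replicate 3. SEMA3D, a secreted class 3 semaphorin, measured 8.82, 9.84 and 9.30 CPM across the wild-type libraries and 2.17, 1.56 and 3.39 CPM across the homozygous ones (log2 change -1.99, SE 0.25, adjusted p = 2.89e-04). SEMA3C fell from 2.63 ± 0.224 to 0.461 ± 0.342 CPM and SEMA3A from 56.9 ± 4.55 to 39.1 ± 5.17 CPM. These 3 semaphorin genes lie in 1 stretch of chromosome 7 (bases 80742538 to 87220587), with CACNA2D1, described below. In that stretch 5 of 10 neighbouring tested protein-coding genes fell. SEMA5B rose from 90.2 ± 3.53 to 141 ± 13.3 CPM. UNC5C, a netrin receptor that mediates repulsion, fell from 18.5 ± 1.56 to 6.57 ± 1.49 CPM. Among netrins, slits and their receptors 5 of 22 fell, and the falls numbered 3 leaving out wild-type replicate 2 or 3 or homozygous replicate 2.

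The teneurin TENM2, a ligand of latrophilins, had 11.7, 14.9 and 14.4 CPM across the wild-type libraries and 3.51, 3.38 and 4.34 CPM across the homozygous ones (log2 change -1.86, SE 0.17, adjusted p = 2.37e-05). ALCAM, an immunoglobulin adhesion molecule, had 7.70, 8.23 and 7.18 CPM and 3.43, 1.95 and 2.69 CPM (log2 change -1.57, SE 0.20, adjusted p = 3.07e-04). These were among 12 falls and 4 rises in 58 tested genes of neuronal and immunoglobulin adhesion (median log2 fold change 0.00). NLGN4X, a neuroligin, fell from 72.9 ± 5.44 to 44.2 ± 6.49 CPM, NRXN3, a neurexin, which binds neuroligins, from 5.72 ± 0.400 to 2.66 ± 0.448 CPM, and CADM2, a synaptic adhesion molecule, from 7.59 ± 0.605 to 4.13 ± 0.721 CPM. CLMP, an adhesion molecule of epithelia, rose from 143 ± 8.99 to 219 ± 26.8 CPM. The rises numbered 1 leaving out wild-type replicate 2 or 3 and 2 leaving out wild-type replicate 1 or homozygous replicate 1. The falls numbered 7 leaving out any 1 wild-type library, and 9 with the length and GC offsets described further on.

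Clustered protocadherins, which give single neurons a surface identity, had 6 falls and 1 rise among 31 tested genes, with a median log2 fold change of -0.54. PCDHB16 had 7.89, 7.54 and 8.55 CPM across the wild-type libraries and 2.01, 1.26 and 1.20 CPM across the homozygous ones (log2 change -2.49, SE 0.21, adjusted p = 1.38e-05). PCDHA11 had 0.912, 0.459 and 0.747 CPM and 7.02, 5.13 and 7.98 CPM (log2 change 3.21, SE 0.27, adjusted p = 1.46e-05). Neighbouring genes of these clusters are near copies or share exons, so reads may be split between them and single members are uncertain. The falls numbered 3 leaving out any 1 wild-type library or homozygous replicate 1 or 2. Outside the clusters, PCDH7 fell from 165 ± 6.47 to 57.3 ± 15.7 CPM and PCDH18 from 6.91 ± 1.49 to 2.36 ± 0.636 CPM, and PKP3, the desmosomal plakophilin 3, rose from 0.815 ± 0.741 to 5.34 ± 2.14 CPM. Of the integrins, ITGAV fell from 183 ± 14.97 to 106 ± 28.6 CPM and its partner ITGB8 from 11.6 ± 0.176 to 5.69 ± 0.563 CPM.

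**Figure D4:**
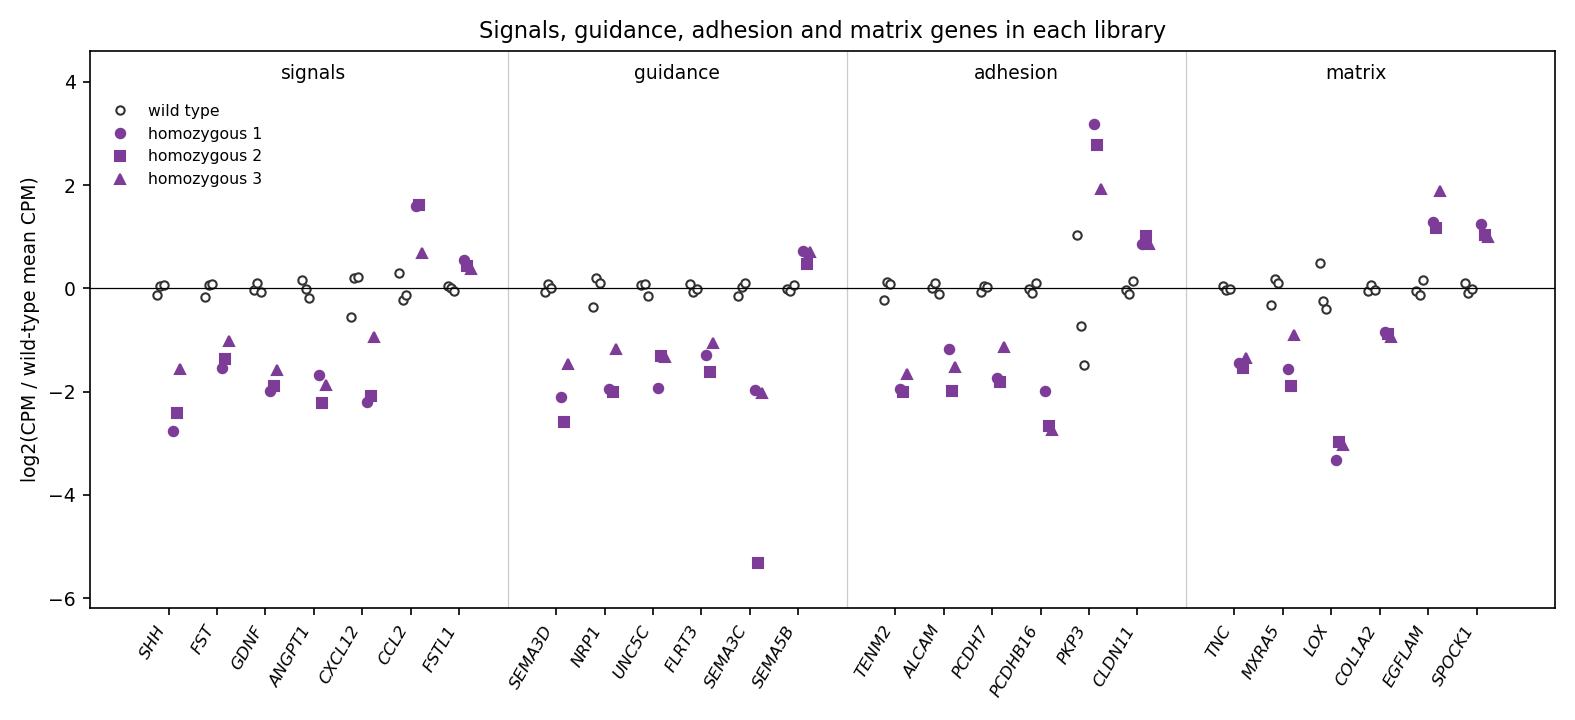
Points are single libraries, placed by the log2 of their CPM over the wild-type mean, for secreted signals, guidance molecules, adhesion molecules and matrix genes. Homozygous libraries lie below the wild-type mean for most genes shown and above it for CCL2, FSTL1, SEMA5B, PKP3, CLDN11, EGFLAM and SPOCK1.

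Genes of the extracellular matrix changed in both directions. MXRA5, a matrix remodelling protein, measured 129.9, 182 and 173 CPM across the wild-type libraries and 54.5, 43.5 and 86.1 CPM across the homozygous ones (log2 change -1.40, SE 0.22, adjusted p = 0.00176). GPC6, a glypican, fell from 105 ± 6.78 to 58.7 ± 10.95 CPM. SPOCK1, a testican proteoglycan, rose from 22.4 ± 1.53 to 47.7 ± 4.47 CPM, and EGFLAM, pikachurin, rose from 9.75 ± 1.005 to 27.3 ± 7.62 CPM (log2 change 1.49, SE 0.18). Of 34 tested collagen genes 5 fell and 3 rose, and the falls numbered 3 leaving out any 1 wild-type library or homozygous replicate 2. COL2A1, a cartilage collagen also made in early embryos, fell from 231 ± 11.6 to 126 ± 13.4 CPM, COL9A3 fell from 87.5 ± 3.54 to 55.8 ± 4.93 CPM, and COL9A2 rose from 96.5 ± 6.12 to 154 ± 18.6 CPM. ADAMTS5, an aggrecanase, fell from 6.80 ± 0.822 to 1.80 ± 0.667 CPM (log2 change -1.93, SE 0.24, adjusted p = 3.18e-04).

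Of 9 tested S100 genes of chromosome 1, 6 rose. S100 proteins are small calcium-binding proteins, and annexins bind membranes in a calcium-dependent way. The joint list had 9 rises and 1 fall among 20 tested genes, with a median log2 fold change of 0.49. It also holds AHNAK and AHNAK2, which belong to neither family and did not pass. S100A16 measured 79.4, 84.6 and 82.7 CPM across the wild-type libraries and 144, 160.1 and 153 CPM across the homozygous ones (log2 change 0.89, SE 0.09, adjusted p = 5.40e-05). S100A11 measured 91.5, 81.7 and 84.95 CPM and 129, 140.2 and 123.1 CPM (log2 change 0.60, SE 0.08, adjusted p = 5.70e-04). S100A14 measured 1.26, 0.558 and 0.581 CPM and 7.10, 6.75 and 1.15 CPM (log2 change 2.58, SE 0.53, adjusted p = 0.0102). No wild-type library reached the lowest homozygous library for S100A16 or S100A11, while the libraries of S100A14 overlapped.

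S100A13 rose from 40.4 ± 2.25 to 60.9 ± 14.6 CPM and S100A4, also on the fibroblast marker list, from 1.36 ± 0.170 to 3.62 ± 1.41 CPM. Between S100A10 and S100A13 (chromosome 1, bases 151982915 to 153631360 on GRCh38, GENCODE release 29) 6 of 10 neighbouring tested protein-coding genes rose and 0 fell. Only 3 of 13337 overlapping windows of 10 such neighbours held at least 6 rises, and the others overlap this window. S100A10 did not pass (67.1 ± 15.004 CPM in the wild type and 85.7 ± 21.4 CPM in the homozygous cells, adjusted p = 0.262), nor did S100A1 and S100A2, at 0.697 and 0.809 CPM in wild-type and 0.981 and 1.10 CPM in homozygous means (adjusted p = 0.364 and 0.479). ANXA2, the partner of S100A10, rose from 356 ± 20.4 to 519 ± 14.4 CPM, ANXA6 rose from 370.3 ± 18.4 to 458 ± 27.1 CPM, and ANXA3 fell from 82.4 ± 1.17 to 56.9 ± 1.71 CPM. The rises numbered 5 leaving out wild-type replicate 2 or 3. S100A6, S100A11, S100A16, S100Z, ANXA2 and ANXA3 passed whichever library was left out. S100A14 did not pass without wild-type replicate 2 or 3 (highest adjusted p = 0.0558), ANXA6 without any 1 wild-type library (highest 0.104), S100A4 without homozygous replicate 1 or 2 or any 1 wild-type library (highest 0.0902), and S100A13 without homozygous replicate 2, heterozygous replicate 2 or any 1 wild-type library (highest 0.179). S100A6, S100A14 and S100A16 stayed called against a 1.5-fold change.

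Cytoskeletal genes moved both ways. STMN2, a microtubule-destabilising protein typical of neurons, had 8.37, 7.05 and 6.06 CPM across the wild-type libraries and 55.2, 46.5 and 46.5 CPM across the homozygous ones (log2 change 2.77, SE 0.14, adjusted p = 1.59e-07). Summed neural and neural crest markers were 734 to 768 CPM in wild-type and 714 to 765 CPM in homozygous libraries, and this list includes STMN2. VIL1, villin of the intestinal brush border, rose from 4.98 ± 0.777 to 12.5 ± 1.79 CPM. SYNM, the intermediate filament protein synemin, fell from 36.3 ± 1.08 to 17.2 ± 2.81 CPM, and MYO10, a myosin of filopodia, from 305 ± 5.79 to 178 ± 36.8 CPM. Actin regulators and LIM proteins had 9 rises and 9 falls among 84 tested genes (21.4% called, beside 7.68% of all genes). The rises numbered 4 leaving out wild-type replicate 3 and 5 leaving out wild-type replicate 2 or homozygous replicate 1, and the falls 4 leaving out wild-type replicate 2 and 5 leaving out wild-type replicate 3 or homozygous replicate 1.

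Of 54 tested potassium channels 6 rose and 2 fell (14.8% called, beside 7.68% of all genes). KCNK5, a two-pore-domain channel, measured 14.9, 13.1 and 11.8 CPM across the wild-type libraries and 35.7, 30.8 and 29.2 CPM across the homozygous ones (log2 change 1.26, SE 0.13, adjusted p = 5.40e-05). KCNF1, a modulatory voltage-gated subunit, rose from 98.5 ± 3.52 to 160.3 ± 8.97 CPM. Leaving out wild-type replicate 2 gave 3 rises and 2 falls, and leaving out wild-type replicate 3 gave 3 of each. CACNA2D1, an auxiliary calcium channel subunit, fell from 15.8 ± 0.376 to 7.98 ± 1.01 CPM. Of 263 solute carriers 13 rose and 16 fell. The rises numbered 6 leaving out wild-type replicate 2 and 7 leaving out wild-type replicate 3, and the falls 6 leaving out wild-type replicate 2, 9 leaving out wild-type replicate 1 or 3 or homozygous replicate 1 or 2 and 32 leaving out homozygous replicate 3.

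Metabolic genes with a role in liver and gut were among the rises. CPS1, the mitochondrial enzyme that starts the urea cycle, measured 14.5, 14.7 and 15.9 CPM across the wild-type libraries and 67.8, 59.7 and 61.4 CPM across the homozygous ones (log2 change 2.07, SE 0.09, adjusted p = 6.51e-08). DGAT2, which makes triglyceride, measured 4.85, 5.64 and 4.28 CPM and 10.8, 13.1 and 10.02 CPM (log2 change 1.20, SE 0.18, adjusted p = 0.00138). Of 51 tested genes of fatty acid metabolism 5 were called (9.80%, beside 7.68% of all genes), all higher. The rises numbered 3 leaving out wild-type replicate 3 or homozygous replicate 1. Falls numbered 1 leaving out homozygous replicate 2 or heterozygous replicate 3 and 2 leaving out homozygous replicate 3, and 2 with DESeq2. APOA2, an apolipoprotein of high-density lipoprotein, rose from 13.95 ± 2.11 to 27.7 ± 7.19 CPM, and C5, a complement protein made in liver, rose from 2.64 ± 0.273 to 6.88 ± 2.01 CPM. HNF4A, a nuclear receptor of liver and gut, rose from 22.7 ± 1.91 to 38.96 ± 2.46 CPM (log2 change 0.77, SE 0.11).

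BCAT1, which transaminates branched-chain amino acids, fell from 159.976 ± 18.2 to 72.95 ± 11.4 CPM (log2 change -1.14, SE 0.12, adjusted p = 5.84e-05). DHRS2, a short-chain dehydrogenase, rose from 3.37 ± 0.650 to 11.8 ± 1.39 CPM. Of 69 tested oxidoreductases of its list 7 rose and 3 fell (14.5% called, beside 7.68% of all genes). The rises numbered 2 leaving out wild-type replicate 2 or 3, 4 leaving out homozygous replicate 2 or heterozygous replicate 2 and 15 leaving out homozygous replicate 3. Sterol synthesis had 5 falls of 30 (16.7% called, beside 7.68% of all genes). Their log2 fold changes ran from -0.54 for HMGCS1, the synthase before the rate-limiting step, to -0.34 for ACAT2, which makes acetoacetyl-CoA. The count of falls depended on single libraries, at 0 leaving out wild-type replicate 2 or 3, 1 leaving out homozygous replicate 1, 3 leaving out homozygous replicate 2 and 10 leaving out homozygous replicate 3.

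The general machinery of the cell showed few calls with all libraries in the fit, beside 7.68% of all genes called. At the adjusted threshold edgeR called 0 of 83 cytosolic ribosomal protein genes, 0 of 66 genes of DNA replication and mitosis, 0 of 26 genes of DNA methylation and KRAB co-repression and 0 of 13 mitochondrially encoded genes. With only 26 and 13 genes, the last 2 counts are near what that share of all genes would give. At an unadjusted p below 0.05 these counts were 2, 11, 2 and 2, DESeq2 called 0, 3, 0 and 0, and limma-voom called 0, 0, 0 and 0. Leaving out homozygous replicate 3, edgeR called 2 rises among the ribosomal protein genes and 5 rises and 2 falls among those of DNA replication and mitosis, and leaving out heterozygous replicate 3 gave 2 rises and 1 fall among the latter. Of the mitochondrially encoded genes 1 rose leaving out homozygous replicate 3 and 1 fell leaving out heterozygous replicate 3. Of 90 nuclear-encoded respiratory chain genes 1 rose and 1 fell; the rises numbered 2 leaving out heterozygous replicate 3 and 10 leaving out homozygous replicate 3, and the falls 0 leaving out any 1 wild-type library or homozygous replicate 1 and 2 leaving out heterozygous replicate 3. The riser, NDUFAF1, is an assembly factor of complex I and measured 7.30, 6.92 and 7.76 CPM across the wild-type libraries and 14.8, 20.2 and 16.7 CPM across the homozygous ones (log2 change 1.25, SE 0.14, adjusted p = 1.01e-04). MRPS21, a mitochondrial ribosomal protein, rose from 43.9 ± 0.598 to 95.8 ± 17.99 CPM.

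CDK6, CDKN2C and CCND1, which regulate G1, were called. CDK6, a kinase that drives entry into S phase, stood at 152, 203 and 194 CPM across the wild-type libraries and 71.04, 51.7 and 97.7 CPM across the homozygous ones (log2 change -1.32, SE 0.20, adjusted p = 0.00155). CDKN2C, an inhibitor of CDK4 and CDK6, fell from 7.996 ± 0.524 to 3.73 ± 0.900 CPM, and CCND1, cyclin D1, rose from 21.7 ± 1.20 to 32.9 ± 1.70 CPM. XIAP, an inhibitor of caspases, fell from 175 ± 6.23 to 92.2 ± 14.3 CPM, and ATF3, a stress-induced factor, fell from 59.8 ± 5.82 to 24.8 ± 2.33 CPM.

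Of 65 tested homeobox factors 8 fell and 3 rose (16.9% called, beside 7.68% of all genes). The rises numbered 5 leaving out homozygous replicate 3. SP8, a zinc finger factor of limb and brain patterning, had 29.9, 38.4 and 36.9 CPM across the wild-type libraries and 9.86, 7.71 and 17.6 CPM across the homozygous ones (log2 change -1.58, SE 0.25, adjusted p = 0.00192). NKX6-1, a pancreatic and neural homeobox factor, had 1.82, 2.76 and 2.66 CPM and 0.0836, 0.265 and 0 CPM (log2 change -4.06, SE 0.64, adjusted p = 0.00180). MNX1, needed for the dorsal pancreas, had 3.06, 4.99 and 3.32 CPM and 6.77, 10.4 and 9.57 CPM (log2 change 1.25, SE 0.23, adjusted p = 0.00513). SP8 and NKX6-1 were lower and MNX1 was higher in every homozygous library than in any wild-type library. SOX5 fell from 24.3 ± 0.582 to 11.7 ± 3.02 CPM, and SOX18, an endothelial factor, rose from 5.66 ± 0.124 to 12.7 ± 1.71 CPM. ELF3, an epithelial ETS factor, rose from 2.39 ± 0.516 to 7.08 ± 1.53 CPM, and TFAP2C, a trophoblast and germ cell factor on the trophoblast list, from 9.71 ± 1.42 to 22.6 ± 3.78 CPM.

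Of 471 zinc finger genes 32 fell and 19 rose (10.8% called, beside 7.68% of all genes), of which 14 and 5 stayed called against a 1.5-fold change. The falls numbered 19 leaving out wild-type replicate 2, 21 leaving out wild-type replicate 3 or homozygous replicate 1 or 2 and 50 leaving out homozygous replicate 3, and the rises 9 leaving out wild-type replicate 3 and 11 leaving out wild-type replicate 2. On chromosome 19, 6 of 10 neighbouring tested protein-coding genes from ZNF101 to ZNF626 (bases 19668796 to 20661596) fell. Of the 13337 overlapping windows 7 held at least 6 falls, 4 on chromosome 19 and 3 on the X chromosome. ZNF253, in the same stretch, had 7.08, 7.41 and 6.10 CPM across the wild-type libraries and 1.42, 1.19 and 0.798 CPM across the homozygous ones (log2 change -2.62, SE 0.26, adjusted p = 5.78e-05). Members of this family are near copies, so reads may be shared between them. On the X chromosome, the BEX and TCEAL family had 3 rises and 3 falls among 12 tested genes. BEX5 had 0.483, 0.853 and 0.872 CPM and 6.44, 8.64 and 5.38 CPM (log2 change 3.25, SE 0.26, adjusted p = 1.16e-05), and TCEAL9 fell from 233 ± 7.32 to 113 ± 8.99 CPM. TDRD7, a Tudor protein of germ cell granules and the lens, fell from 153 ± 8.75 to 56.1 ± 10.05 CPM.

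Among noncoding genes, 26 of 687 antisense and divergent transcripts rose and 9 fell (5.09% called, beside 7.68% of all genes). Of 300 long intergenic RNAs 21 fell and 11 rose (10.7% called). Over all genes 3.5% rose and 4.18% fell. The intergenic rises numbered 5 leaving out wild-type replicate 2, 6 leaving out wild-type replicate 1 and 7 leaving out homozygous replicate 1 or 2, the antisense falls 5 leaving out wild-type replicate 2 and 18 leaving out homozygous replicate 3, and the antisense rises 10 leaving out wild-type replicate 3, 11 leaving out wild-type replicate 2, 14 leaving out homozygous replicate 2, 16 leaving out homozygous replicate 1 and 48 leaving out homozygous replicate 3. PURPL, a long noncoding RNA regulated by p53, fell from 7.21 ± 0.887 to 1.34 ± 0.159 CPM (log2 change -2.45, SE 0.27). GDNF-AS1 fell from 10.1 ± 0.378 to 4.02 ± 0.971 CPM, beside the fall of GDNF given above, and the 2 cannot be told apart without a strand setting.

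By chromosome, the balance of calls varied. Chromosome 4 had 55 falls and 16 rises among 611 tested genes, while chromosome 17 had 13 falls and 41 rises among 983 and chromosome 22 had 5 falls and 21 rises among 406. The shares called on chromosomes 4, 17 and 22 were 11.6%, 5.49% and 6.40%, beside 7.68% of all genes. The X chromosome had 12.8% of its 611 tested genes called. By gene structure, in the fifth of genes with the longest spans 266 fell and 118 rose, and in the fifth with the shortest spans 63 fell and 103 rose. In the fifth with the lowest transcript GC content 279 fell (8.44%) and 48 rose, against 43 (1.30%) and 160 in the fifth with the highest.

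The same gradient was present in the median of all genes, called or not, and ran furthest in homozygous replicate 2, whose median differences from the wild-type mean, on the log2(CPM + 1) scale, went from -0.25 at the lowest GC to 0.16 at the highest. With offsets per library for span and GC, 724 genes fell and 667 rose, and 1110 of the 1293 calls were among them. Of 264 named genes called, 23 were then not called. The falls of the FGF list were then 11 and the rises of the S100 and annexin list 9. Beyond this refit, the part of the gradient in the changes was not tested.

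**Figure D5:**
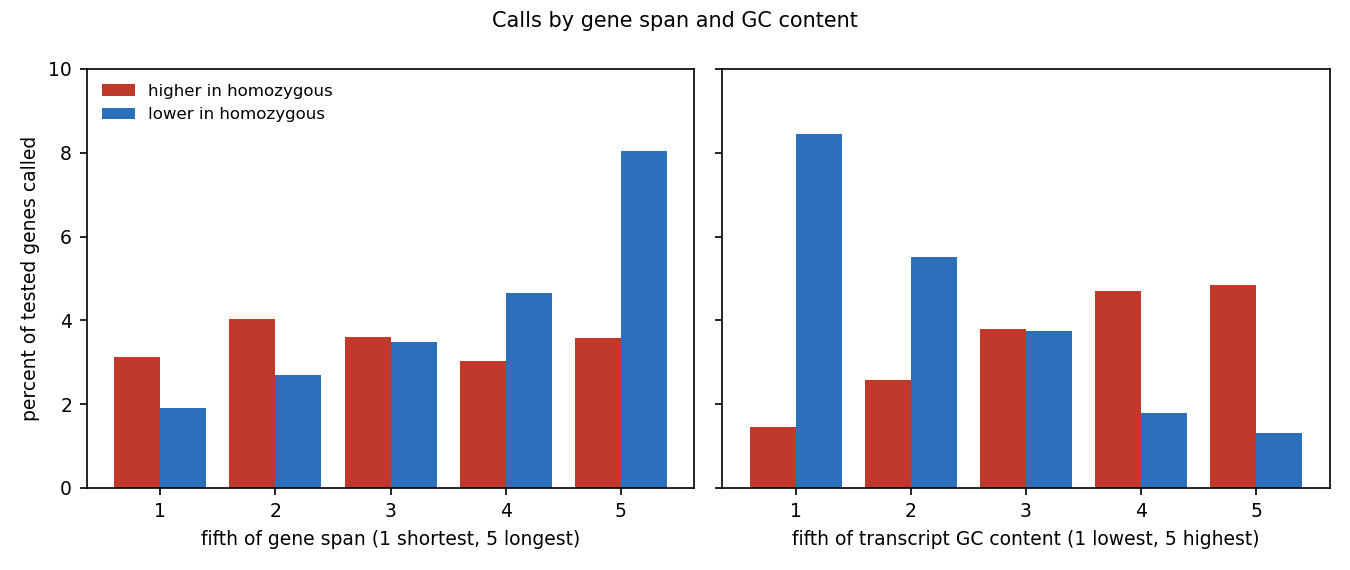
Bars give the percent of genes called higher or lower in homozygous endoderm for genes cut into 5 equal groups by span and by transcript GC content. The share of falls runs from 1.30% at the highest to 8.44% at the lowest GC and reaches 8.04% at the longest spans.

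Heterozygous endoderm was fitted against the same wild-type libraries, so the 2 comparisons share controls and are given only side by side. SHH had a log2 fold change of -1.48 in heterozygous cells (adjusted p = 0.00222) beside -2.14 in homozygous cells. CPS1 had 1.06 (adjusted p = 2.41e-05) beside 2.07. PNPLA4, a lipase gene of the X chromosome, had -3.70 (adjusted p = 2.14e-06) beside -3.46, and BEX5 3.32 (adjusted p = 1.07e-05) beside 3.25. MAP3K13 had -0.07 (adjusted p = 0.911) beside -4.88. The difference between the mutants was not tested here.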

How the data were processed

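Total RNA of H9-derived endoderm was sequenced in 9 libraries, and the authors deposited raw read counts per Ensembl gene. Per the submitters' processing notes, FastQC, Trimmomatic, HISAT2, SAMtools, HTSeq and the build hg38 were used. The annotation release, strand setting and tool versions are not stated in any source used here. Genotypes were taken from the labels. Of 26240 genes, filterByExpr (edgeR 4.0.16, R 4.3.3) by genotype kept 16837. Counts were scaled with TMM factors (0.973 to 1.01), fitted on all 9 libraries by genotype with edgeR's quasi-likelihood model, and compared as homozygous minus wild type, two-sided. All adjusted p-values are Benjamini-Hochberg values over all genes tested, and a gene was called below 0.05. "Rose", "fell", "higher" and "lower" refer to called genes. The SE is the size of the log2 fold change divided by the square root of F.

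Named genes are CHD7, endoderm markers, and, if called, free of overlap between the genotypes' libraries and at 5 CPM or more in 1 genotype, the 15 largest rises, the 15 largest falls and the 4 largest changes per list. Members and lists were chosen with earlier results of these data known. After values were seen, 1 pattern was narrowed, pseudogenes were left out of lists defined by symbol patterns, and members whose calls did not depend on 1 library were preferred in the text. Coordinates and symbols come from GENCODE release 29, and promoter windows from RefSeq. Limits of at least a given fold use a floor of 3 counts over a genotype and cover counting error only. On simulated counts of 16597 genes the share of changed genes called was 34.3% at 1.5-fold, 82.1% at 2-fold and 100% at 4-fold, and 7.10% of all calls were false. Alternatives were other scalings and filters, DESeq2 1.42.0, limma-voom (limma 3.58.1), the 6 libraries alone, a replicate block, a 1.5-fold test, thinning, wild-type replicates 2 and 3 summed, leaving out each library and, added after seeing the data, offsets for span and GC. A few genes are left out of the text.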

Additional observations from a re-analysis of the deposited data

How the results depend on the processing

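Of the 1293 calls, 704 lower and 589 higher, the test against a 1.5-fold change kept 281 (155 lower, 126 higher), and summing wild-type replicates 2 and 3 into 1 library gave 692 (376 lower, 316 higher), with fewer libraries in the fit. Leaving out 1 library gave 651 to 2118 calls, 355 to 1131 lower and 296 to 987 higher, with the fewest without wild-type replicate 2 and the most without homozygous replicate 3; the cause was not tested. Other settings gave 1075 (thinned) to 1765 (DESeq2) calls, within 1.5 times the reported count. Of 264 named genes called, 171 passed whichever library was left out, and no log2 fold change reversed. The replicate numbers are shared between genotypes, but same-numbered wild-type and homozygous libraries did not deviate together in all pairs (r = 0.24, -0.19 and 0.24 across genes), so they were not treated as pairs. With the replicate block 1503 genes were called, 810 lower and 693 higher, of which 1230 were among the 1293. On simulated counts at the library sizes of these data, 11854173 in the shallowest, 1.5-fold changes were often missed, with 34.3% recovered. The simulation changed fewer genes than were called here, none at very low levels, and built in no library that deviated from the others of its genotype. Its rates may therefore differ from those of these data, and depth was not varied in it.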
